A study of Mus musculus with 4 samples.

Results

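The genes described here belong to the apoptosis machinery and the p53 pathway of the mouse. They were taken by symbol from the array's platform annotation: the Bcl2, Bnip, caspase, Pdcd, Tnfrsf, Gadd45, sestrin and Trp53-related families, together with 19 genes asked for singly, such as Bbc3, Fas, Mdm2 and Ccng1. The rule found 96 probes for 58 genes, out of 8980 genes with a named probe. Of the genes asked for singly, 14 had a named probe, and Bax, Bik, Xiap, Birc3 and Birc6 had none. Trp53 itself and Casp8, which belong to families in the rule, also had no named probe and were not analysed here. The cells were neural precursors from the cortex of embryos of the ICR mouse strain, taken on embryonic day 12. They were expanded in bFGF and EGF and exposed for 2 hours to retrovirus, and RNA was taken after 2 days of differentiation without both growth factors. The 4 groups, with 1 array each, received virus for Nurr1 and Foxa2 together, for Nurr1, for Foxa2, or the empty vector pCL (Control), from which all the viruses were built. Midbrain dopamine neurons need both factors, of which Nurr1 belongs to the nuclear receptors and Foxa2 to the forkhead proteins. The labels give no share of transduced cells and no number of embryos or cultures per array.

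Apoptosis is the ordered death of a cell by caspases, proteases that cut cellular proteins. On the mitochondrial route, BH3-only proteins oppose the protective Bcl2 proteins, cytochrome c leaves the mitochondria, and Apaf1 activates Casp9. On the other route, ligands of the TNF family engage receptors with a death domain, such as Fas. The transcription factor p53, which Mdm2 keeps low, induces genes of both routes and of cell cycle arrest after DNA damage and other stress, and many neural precursors die by apoptosis during normal development of the cortex.

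Each value below is either a deposited signal, the brightness of a probe on a linear scale, or a fold or log2 difference after background correction and quantile normalization. Background correction widens the ratios of dim probes, so a fold can exceed the ratio of the signals beside it. A gene was called higher or lower at a difference of 2-fold or more, and a fold against an array that did not detect the gene is a bound, written "at least". No group had a replicate, so none of the differences has a replicate check, and no test between groups was made. An additive fit of both factors over the 4 arrays would leave 1 residual degree of freedom, which is the joint difference given at the end, and it was not run. The only error available is the spread between probes of the same gene, whose SD on the log2 scale was 0.24 for the comparison of both factors with Control, 0.18 for that of Nurr1 and 0.20 for that of Foxa2. In these bulk samples, fewer cells of a type and less RNA per cell cannot be told apart.

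The label of the Nurr1 arrays was checked on Nr4a2, the gene of Nurr1, whose signal was 1620.4 with both factors, 1669 with Nurr1, 216 with Foxa2 and 167 in Control. Foxa2 had no named probe. Between 42.7% and 44.6% of probes were detected on each array, and the median signal lay between 134 and 149. Of 11 named precursor markers, 10 were detected on every array, Sox2, Nes and Vim among them, and Gli3 on the Foxa2 array alone, while Pax6, Emx1 and Emx2, which mark cortical identity, had no named probe. Summed marker signals differed between arrays, and a single bright gene carried much of several sums. The 11 precursor markers summed to 46403 with both factors, 58115 with Nurr1, 84183 with Foxa2 and 90186 in Control, but without Slc1a3 to 25276, 31451 and 35325 on the 3 factor arrays and 29549.5 in Control. With both factors 6 of 10 measured precursor markers were called lower than in Control and 0 higher, while Vim was 0.39 above Control on the log2 scale. With Nurr1 2 of 10 were lower and 0 higher, and with Foxa2 0 of 11 were lower and 1 (Hes1) higher. Among all named genes, 4.75% were called lower and 7.06% higher with both factors, 2.79% and 4.37% with Nurr1, and 1.48% and 3.52% with Foxa2. The 7 astrocyte markers summed to 25060 with both factors, 40863 with Nurr1, 34249 with Foxa2 and 47110 in Control, and without Gja1 to 8149.9, 11061, 17603 and 33155 in the same order. Of these 7, 5 were called lower with both factors, 4 with Nurr1, where Gja1 was higher, and 2 with Foxa2. The 7 oligodendrocyte lineage markers summed to 33740 with both factors, 63355 with Nurr1, 51321 with Foxa2 and 79556 in Control, and 5, 1 and 3 of them were called lower on the factor arrays. The 11 neuron markers summed to 18694, 20776 and 21269 on the 3 factor arrays and 16335 in Control, with members in both directions: 3 were called higher and 1 lower with both factors, 5 higher and 1 lower with Nurr1, and 0 either way with Foxa2. The 14 cell cycle genes summed to 15729 with both factors, 16154 with Nurr1, 18907 with Foxa2 and 8918 in Control. All 13 detected cell cycle genes were above Control on each factor array, and 4, 6 and 7 of them were called higher with both factors, with Nurr1 and with Foxa2. Of 5 named fibroblast and mural markers, 3, 3, 1 and 0 were detected with both factors, with Nurr1, with Foxa2 and in Control. Their summed signals were 1236, 1076, 1932 and 579 in the same order. Col1a1 and Lum were detected on no array. Acta2 was above Control by at least 0.48 with both factors, 1.16 with Nurr1 and 3.76 with Foxa2 on the log2 scale. Foxc1 was above Control by at least 1.89 with both factors and 0.70 with Nurr1, and Dcn by at least 0.14 and 0.62. Foxc1 and Dcn were not detected with Foxa2 alone. The single named microglial marker (Aif1) and the single named endothelial marker (Kdr) were detected on no array. The part of these shifts in the differences below was not tested.

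Most apoptosis and p53 genes were detected in all cultures and differed less than 2-fold in each comparison, as was true of most named genes. Of the 58 genes, 51 were detected on all 4 arrays, 2 on some (Pmaip1 and Pdcd11) and 5 on none. Of 8980 named genes, 7127 were detected on all 4 arrays and 8230 on at least 1. The undetected genes were Bak1, a pore-forming effector of the mitochondrial route, the inflammatory caspases Casp4 and Casp12, Bnipl, and Pdcd1, the T cell receptor PD-1. The largest differences were in 1 BH3-only gene, 3 receptors of the TNF family, 1 Gadd45 gene and a pair of p53-regulating kinase genes.

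**Figure D1:**
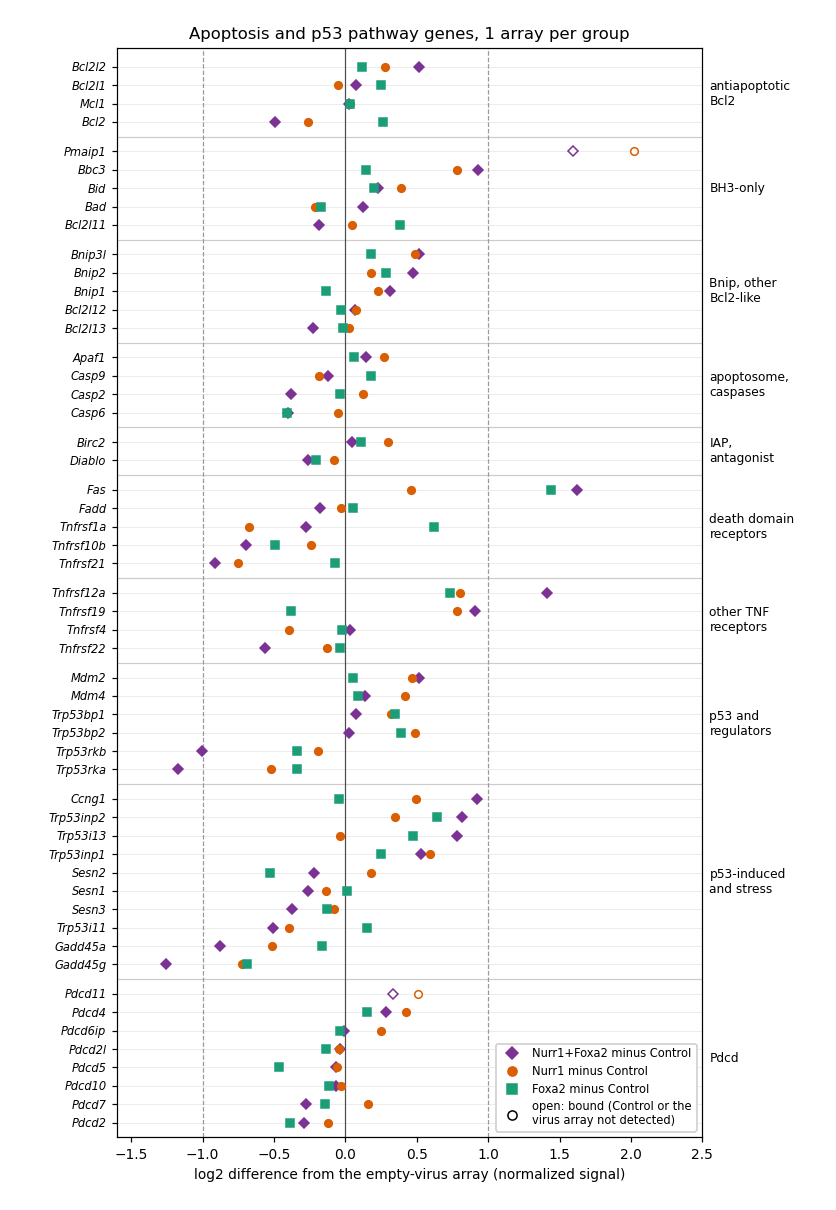
Log2 difference from the Control array for the 53 genes detected on at least 1 array, grouped by role, with diamonds for Nurr1+Foxa2, circles for Nurr1 and squares for Foxa2, open where the difference is a bound. Most symbols lie within the dashed lines at -1 and 1, and the symbols beyond them are those of Pmaip1, Fas, Tnfrsf12a, Gadd45g, Trp53rka and Trp53rkb.

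With both factors against Control, Fas, Pmaip1 and Tnfrsf12a were called higher and Gadd45g, Trp53rka and Trp53rkb lower, which is 6 of 53 members measured. That share of 11.3% stood beside 11.8% of all named genes in the same comparison, of which 7.06% were higher and 4.75% lower. The median log2 difference was 0.02 over the members and -0.08 over all named genes, and 27 members were above Control and 26 below it, against 3325 above and 4570 below of 8019 named genes. At 1.5-fold, 8 members were higher and 6 lower, against 13.4% of all genes in either direction. The members added there were Bbc3, Ccng1, Tnfrsf19, Trp53i13 and Trp53inp2 on the higher side and Gadd45a, Tnfrsf10b and Tnfrsf21 on the lower side.

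Each factor alone moved fewer members. With Nurr1 against Control only Pmaip1 was called, higher, among 53 members, where 7.16% of all named genes were called (4.37% higher and 2.79% lower). At 1.5-fold, 5 members were higher and 3 lower, against 8.82% and 8.40% of all genes. With Foxa2 against Control only Fas was called, higher, among 52 members, where 5.0% of all named genes were called (3.52% higher and 1.48% lower). At 1.5-fold, 4 members were higher and 1 lower, against 8.09% and 5.77% of all genes. The members' median log2 difference was 0.04 with Nurr1 and 0.01 with Foxa2. These comparisons and the one with both factors share the Control array.

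Addition of the other factor was read from the remaining pair of comparisons, which share the array with both factors. Against Nurr1 alone, the array with both factors had 1 member called higher (Fas) and 0 lower of 53, where 4.41% of all named genes were higher, 1.73% lower and 6.14% called in all. At 1.5-fold, 3 members were higher and 2 lower, against 9.56% and 7.10% of all genes. Against Foxa2 alone, it had 2 members called higher (Pmaip1 and Tnfrsf19) and 0 lower of 53, where 4.81% of all genes were higher, 3.85% lower and 8.66% called in all. At 1.5-fold, 5 members were higher and 7 lower, against 9.75% and 9.81% of all genes. In all 5 comparisons the members' share called at 2-fold lay at or under that of all genes.

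**Figure D2:**
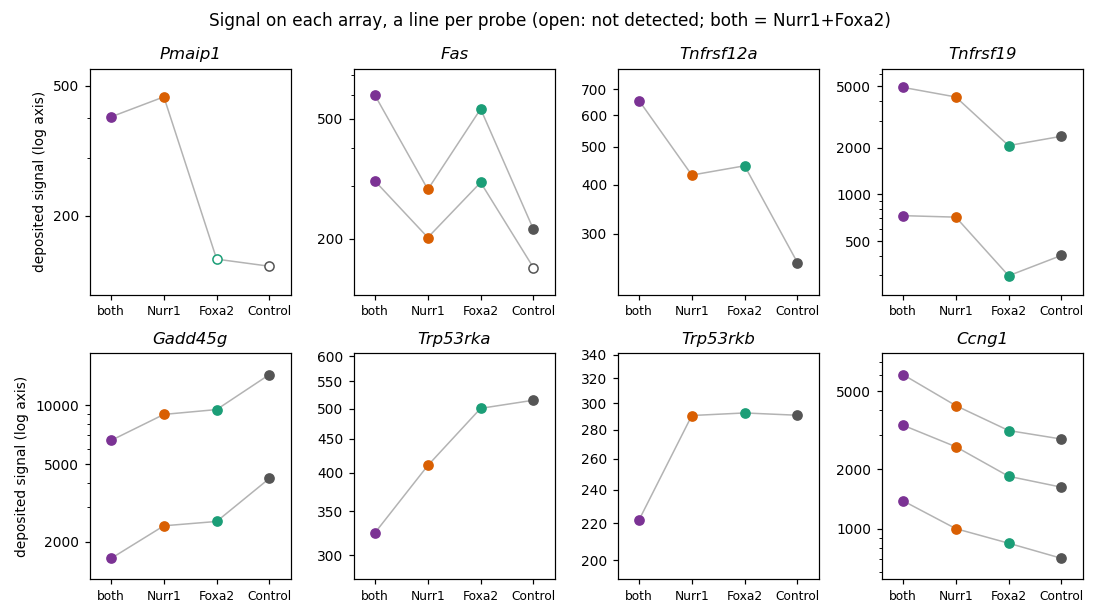
Deposited signal (log axis, with its own range in each panel) of the called members and of Ccng1 on the arrays with Nurr1+Foxa2 (both), Nurr1, Foxa2 and Control, with a line per probe and open circles where a probe was not detected. Pmaip1 was detected only on the arrays that received Nurr1, both Fas probes were brighter on the arrays that received Foxa2, and Gadd45g was dimmest with both factors.

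Among the BH3-only genes, which trigger the mitochondrial route, Pmaip1 stood out. Its product is Noxa, which neutralises Mcl1. Pmaip1 had a signal of 402 with both factors, 463 with Nurr1, 148 with Foxa2 and 140.3 in Control. It was detected on both arrays that received Nurr1 and on neither of those that did not. After background correction, and against the lowest detected value of the dimmer array, Pmaip1 rose at least 3.02-fold with both factors and at least 4.06-fold with Nurr1 relative to Control. Its level with both factors was at least 3.55-fold above that with Foxa2. These bounds hold for that correction alone, since without background subtraction the log2 differences were 1.05, 1.38 and 1.16, still past 2-fold. Between the arrays with both factors and with Nurr1 it differed by -0.43 on the log2 scale. A single probe stands for Pmaip1, so no other probe of the gene bears on these values.

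Bbc3, whose product is Puma, a BH3-only protein induced by p53, was likewise brighter on the arrays that received Nurr1. Its signal was 1938 with both factors, 1635 with Nurr1, 1183 with Foxa2 and 931 in Control. It was 1.91-fold higher with both factors and 1.72-fold higher with Nurr1 than in Control, both under the 2-fold call, and 1.11-fold higher with Foxa2. The other 2 Bbc3 probes were detected on no array. Bad, which binds the protective Bcl2 proteins when it is dephosphorylated, had signals of 1629 with both factors, 1229 with Nurr1, 1355 with Foxa2 and 1321 in Control. Its log2 differences from Control were 0.13 with both factors, -0.21 with Nurr1 and -0.17 with Foxa2, close to the spread between probes of a gene. Bcl2l11, the gene of Bim, had signals of 563, 587 and 794 on the arrays with both factors, Nurr1 and Foxa2, and 532 in Control. It was brightest with Foxa2 alone on this probe and on the other detected one, at 0.38 and 0.19 over Control on the log2 scale. Bid, which links the receptor route to the mitochondria, was above Control by 0.23 with both factors, 0.39 with Nurr1 and 0.20 with Foxa2 on the log2 scale.

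The protective Bcl2 genes did not move together. Mcl1 had signals of 4127 with both factors, 3932 with Nurr1, 4211 with Foxa2 and 3639 in Control, and its log2 differences from Control were 0.02 with both factors, 0.03 with Nurr1 and 0.04 with Foxa2. These are smaller than the spread between probes of a gene. Bcl2 had signals of 576 with both factors, 605 with Nurr1, 915 with Foxa2 and 659.6 in Control. All 4 of its probes were lower with both factors than in Control, at log2 differences between -0.79 and -0.50, and 1.69-fold lower with both factors than with Foxa2 on the brightest probe. A dimmer Bcl2 probe gave 2.04-fold for that last comparison, so the call depends on the probe. Bcl2l2, the gene of Bcl-w, ran the other way, with signals of 2960.1 with both factors, 2374 with Nurr1, 2298 with Foxa2 and 1886 in Control. It was 1.43-fold higher with both factors than in Control, and 1.32-fold on the other detected probe. Bcl2l1, the gene of Bcl-xL, differed from Control by 0.08, -0.05 and 0.25 on the log2 scale with both factors, Nurr1 and Foxa2, and its dimmer probes gave -0.32 and -0.28 with both factors.

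The Bnip genes encode relatives of the BH3-only proteins, and Bnip3l, also called Nix, serves in the removal of mitochondria. None of the 5 genes in this group was called with both factors against Control, where 11.8% of all named genes were. In that comparison 4 of 5 were above Control, against 3325 of 8019 named genes. Bnip3l had signals of 7449 with both factors, 7013 with Nurr1, 6016 with Foxa2 and 4838 in Control. It was 1.43-fold higher with both factors, 1.40-fold with Nurr1 and 1.13-fold with Foxa2 than in Control. Bnip2 was 1.39-fold higher with both factors than in Control and Bnip1 was 1.24-fold higher. Bcl2l12 and Bcl2l13 differed from Control by at most 0.23 on the log2 scale in either direction.

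None of the 4 measured genes of the apoptosome and apoptotic caspases, and neither gene of the IAP group, was called in any comparison. Between 5.0% and 11.8% of all named genes were called there. Apaf1, the scaffold that activates Casp9, had signals of 1224 with both factors, 1244 with Nurr1, 1182 with Foxa2 and 985 in Control. Casp9, the initiator of the mitochondrial route, had signals of 1249 with both factors, 1124 with Nurr1, 1534 with Foxa2 and 1192 in Control. After normalization Apaf1 and Casp9 differed from Control by at most 0.27 on the log2 scale in either direction. Casp2, an initiator caspase linked to DNA damage, had signals of 3070.1 with both factors, 4093 with Nurr1, 3869 with Foxa2 and 3553 in Control, and was 1.42-fold lower with both factors than with Nurr1. Casp6, an effector caspase that also cuts axons during pruning, was 1.32-fold lower with both factors, 1.04-fold lower with Nurr1 and 1.33-fold lower with Foxa2 than in Control. Diablo, the mitochondrial antagonist of IAP proteins, had signals of 3770.0 with both factors, 4001 with Nurr1, 3887 with Foxa2 and 4007 in Control. Birc2, an IAP protein that restrains death signalling from TNF receptors, differed from Control by 0.04 with both factors, 0.30 with Nurr1 and 0.11 with Foxa2 on its brightest probe. The other probe detected on all arrays gave -0.50, -0.27 and -0.26 in the same comparisons. Its direction therefore depends on the probe.

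Among the death domain receptors, Fas was the only gene called, and Tnfrsf1a, described below, was also higher with Foxa2 but under the call. Fas is the receptor of Fas ligand and starts the caspase cascade through the adaptor Fadd. Its brightest probe had a signal of 598 with both factors, 291 with Nurr1, 539 with Foxa2 and 215 in Control. The other probe had 310.5 with both factors, 202 with Nurr1, 307 with Foxa2 and 160.3 in Control, where it was not detected. On both probes the arrays that received Foxa2 were brighter than those that did not. Fas was 3.08-fold higher with both factors and 2.71-fold higher with Foxa2 than in Control, and the other probe gave bounds of 2.11-fold and 2.14-fold that hold with background correction alone. Without background subtraction the brightest probe gave log2 differences of 1.22 and 1.07. With Nurr1 alone it was 1.37-fold higher than in Control. The array with both factors was 2.24-fold above the Nurr1 array on the brightest probe and 1.64-fold on the other, so this call holds on a single probe, and it was lost without background subtraction, in the authors' deposited values and with the mean over probes. Between the arrays with both factors and with Foxa2, Fas differed by 0.18 and -0.03 on the log2 scale.

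The remaining genes of the receptor route were lower or level with both factors. Tnfrsf21, a death receptor of the nervous system also called DR6, had signals of 1427 with both factors, 1471 with Nurr1, 2480.2 with Foxa2 and 2316 in Control. Both of its probes were lower on the arrays that received Nurr1. It was 1.88-fold lower with both factors and 1.68-fold lower with Nurr1 than in Control, and the other probe gave 1.91-fold and 1.64-fold. Tnfrsf1a, the main receptor of TNF, was near the detection limit, with signals of 217 with both factors, 169 with Nurr1, 318 with Foxa2 and 203 in Control. It was brightest with Foxa2 on all 3 probes, at 1.53-fold, 1.88-fold and at least 1.67-fold over Control. With Nurr1 it was 1.59-fold lower than in Control on the brightest probe. On that probe the array with both factors was 1.86-fold below the Foxa2 array and 1.32-fold above the Nurr1 array. Tnfrsf10b, the mouse TRAIL receptor, was 1.62-fold lower with both factors than in Control, and 1 of its 4 probes was detected. Fadd, the adaptor, had signals of 699 with both factors, 705 with Nurr1, 818 with Foxa2 and 670.3 in Control, and differed from Control by at most 0.18 on the log2 scale in either direction on that probe. Its dimmer probes gave -0.33 and -0.51 with both factors.

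Of the receptors of the TNF family without a death domain, Tnfrsf12a and Tnfrsf19 were called. Tnfrsf12a, also called Fn14, is the receptor of the ligand TWEAK and acts in tissue repair. It had signals of 655 with both factors, 423 with Nurr1, 447 with Foxa2 and 254 in Control. Control was lowest, the single factors were intermediate and close to each other, and both factors were highest. Tnfrsf12a was 2.66-fold higher with both factors, 1.75-fold higher with Nurr1 and 1.66-fold higher with Foxa2 than in Control. Tnfrsf19, also called Troy, is a receptor of neural precursors and glia. It had signals of 4911 with both factors, 4258 with Nurr1, 2067 with Foxa2 and 2373 in Control, and its other probe had 729, 713 and 298 on the 3 factor arrays and 403 in Control. Both probes were brighter on the arrays that received Nurr1 and dimmest with Foxa2 alone. The array with both factors was 2.45-fold above the Foxa2 array, and 3.09-fold on the other probe. Tnfrsf22 was 1.48-fold lower with both factors than in Control, and Tnfrsf4, a receptor of activated T cells, was 1.02-fold higher.

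Among the regulators of p53, Mdm2, the ubiquitin ligase that degrades p53 and is itself a p53 target, was modestly higher on the arrays that received Nurr1. It had signals of 5346 with both factors, 4795 with Nurr1, 3834 with Foxa2 and 3311 in Control. The other detected probe had 4545 with both factors, 3711 with Nurr1, 3394 with Foxa2 and 2636 in Control. Mdm2 was 1.43-fold higher with both factors, 1.38-fold with Nurr1 and 1.04-fold with Foxa2 than in Control, and the other probe gave 1.56-fold, 1.34-fold and 1.14-fold. Its relative Mdm4, which holds p53 inactive without degrading it, differed from Control by 0.14 with both factors, 0.42 with Nurr1 and 0.09 with Foxa2 on the log2 scale.

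Trp53rka and Trp53rkb, a pair of closely related genes for kinases named after the phosphorylation of p53, were the members of this group that fell. Trp53rka had signals of 325 with both factors, 410.2 with Nurr1, 500.4 with Foxa2 and 515 in Control. Trp53rkb had 222 with both factors, and 291, 293 and 291 with Nurr1, with Foxa2 and in Control. Both genes were dimmest with both factors, where Trp53rka was 2.26-fold lower and Trp53rkb 2.01-fold lower than in Control. Each has a single probe, and near-identical copies of a gene can share signal, so the pair is not counted as independent evidence. Without background subtraction and in the authors' deposited values neither reached 2-fold, and Trp53rkb also lost the call with an offset of 50 and with scaling to equal medians. Trp53bp1, a DNA damage adaptor that binds p53, had signals of 3423 with both factors, 3790.4 with Nurr1, 4123 with Foxa2 and 2892 in Control. Trp53bp2, the gene of ASPP2, which directs p53 towards apoptotic genes, had 503 with both factors, 602 with Nurr1, 623 with Foxa2 and 416 in Control. After normalization these probes were above Control with each single factor, by 0.32 to 0.49 on the log2 scale, and within 0.08 of it with both. The other Trp53bp1 probe gave 0.15 with both factors, 0.14 with Nurr1 and 0.26 with Foxa2, and so did not show that pattern.

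The p53-induced and stress genes went in both directions, with 4 of 10 above Control and 6 below it with both factors. Of 8019 named genes, 3325 were above Control and 4570 below it in the same comparison. Ccng1, the gene of cyclin G1, a p53 target that regulates Mdm2, had signals of 6056 with both factors, 4215 with Nurr1, 3150.2 with Foxa2 and 2852 in Control. Its other probes had 3352 and 1386 with both factors, 2607 and 1001 with Nurr1, 1846 and 844 with Foxa2, and 1625 and 708 in Control. All 3 probes gave the same order of arrays. Ccng1 was 1.90-fold higher with both factors, 1.41-fold higher with Nurr1 and 1.03-fold lower with Foxa2 than in Control, and 1.95-fold higher with both factors than with Foxa2. It was under the 2-fold call in all 5 comparisons, while its probes spanned only 0.83 to 0.92 on the log2 scale with both factors against Control.

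Gadd45g, a growth arrest gene also expressed when precursors leave the cycle to become neurons, was the member that fell furthest with both factors. It had signals of 6600.1 with both factors, 8969 with Nurr1, 9496 with Foxa2 and 14349 in Control, and its other probe had 1644, 2414 and 2541 on the 3 factor arrays and 4221 in Control. Control was the brightest on both probes and the array with both factors the dimmest. Gadd45g was 2.40-fold lower with both factors, 1.65-fold lower with Nurr1 and 1.62-fold lower with Foxa2 than in Control, and the other probe gave 2.96-fold, 1.84-fold and 1.89-fold. Gadd45a, its p53-induced relative, had signals of 733 with both factors, 851 with Nurr1, 1156 with Foxa2 and 1109 in Control, and was 1.84-fold lower with both factors than in Control on this probe and 1.54-fold on the other. Both Gadd45 genes thus ran against Ccng1 and Mdm2 on the same array, which also had the lowest summed signal of precursor markers, with Slc1a3 and without it, and the part of that shift was not tested.

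Of the other p53-induced and stress genes, Trp53inp1, which acts in autophagy and p53-dependent death, had signals of 4562 with both factors, 4539 with Nurr1, 3794 with Foxa2 and 2862 in Control. It was 1.44-fold higher with both factors, 1.51-fold with Nurr1 and 1.19-fold with Foxa2 than in Control. Its other probe gave log2 differences of 0.64, 0.34 and -0.29 in these comparisons, so the direction with Foxa2 depends on the probe. Trp53inp2, an autophagy gene, was brightest where Foxa2 was present, with signals of 2277 with both factors, 1562 with Nurr1, 2037 with Foxa2 and 1179 in Control. Trp53i13 showed the same order, with 969 with both factors, 543 with Nurr1, 819 with Foxa2 and 517 in Control, and was 1.72-fold higher with both factors than in Control. The 3 sestrins, which restrain oxidative stress and mTORC1 signalling, were below Control with both factors, as were 4570 of 8019 named genes. Sesn1, Sesn2 and Sesn3 differed there by -0.26, -0.22 and -0.38 on the log2 scale, and the other Sesn2 probe by -0.64. Sesn2 was lowest with Foxa2 alone, where its probes differed from Control by -0.53 and -0.92, against 0.18 and -0.06 with Nurr1. Trp53i11 was 1.42-fold lower with both factors than in Control.

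The Pdcd genes share a name given for programmed cell death but have diverse roles. None of them was called in any comparison, where between 5.0% and 11.8% of all named genes were. Pdcd2, a ribosome assembly factor, had signals of 2117 with both factors, 2201 with Nurr1, 1989 with Foxa2 and 2289.9 in Control. Pdcd4, an inhibitor of translation, was 1.22-fold higher with both factors, 1.34-fold with Nurr1 and 1.11-fold with Foxa2 than in Control. Pdcd5 was 1.38-fold lower with Foxa2 alone than in Control on its brightest probe and 1.39-fold on the other, while with both factors it differed by -0.07 and -0.20 on the log2 scale. With both factors 2 of 8 measured Pdcd genes were above Control and 6 below it. Of 8019 named genes, 3325 were above and 4570 below there. The log2 differences of the Pdcd genes ranged from -0.29 to 0.33, the highest being a bound for Pdcd11.

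Probes of the same gene were compared with each other, which checks the measurement of an RNA sample and holds no difference between cultures. With both factors against Control, 20 members had more than 1 probe detected on both arrays, and in 18 of them every probe had the same sign. The exceptions were Birc2 and Bcl2l1. The same held in 15 of 20 genes for Nurr1 against Control, 13 of 21 for Foxa2 against Control, 15 of 20 for both factors against Nurr1 and 20 of 21 for both factors against Foxa2. The median SD between a member's probes was 0.09 on the log2 scale with both factors against Control, and lay between 0.11 and 0.13 in the other comparisons.

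**Figure D3:**
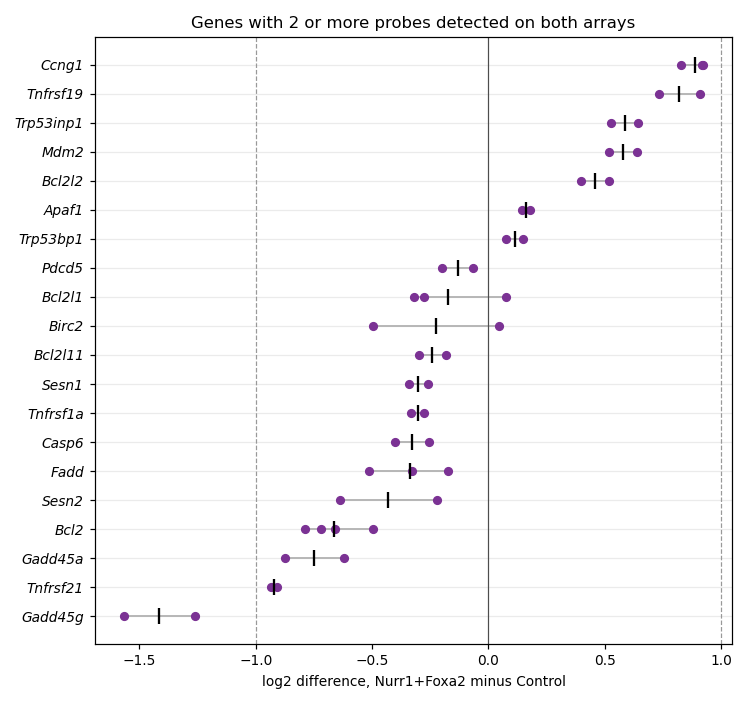
Log2 difference between the Nurr1+Foxa2 and Control arrays for each probe (dots) and their mean (bars), in the 20 member genes with several probes detected on both arrays. The 3 Ccng1 probes lie between 0.83 and 0.92 and both Gadd45g probes beyond -1, while Birc2 and Bcl2l1 have probes on both sides of 0.

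Promoter sequences were searched for every member that had one, whatever its signals. RefSeq promoters of mouse assembly GRCm38.p6, 300 bases around a gene's start, were found for 51 members, 64 promoters in all. They were searched on both strands for the Nurr1 site NBRE (AAAGGTCA), a forkhead core (TGTTTAC) and the p53 consensus decamer. The decamer is a half-site and not a full p53 site. The NBRE was in 0 of these promoters, against 1.51% of 32851 mouse promoters. The forkhead core was in 6 promoters of 5 genes (Bbc3, Bcl2l11, Casp4, Mdm2 and Sesn1), which is 9.38% of member promoters against 3.65% of all. The Casp4 windows overlap and hold the same site, which is counted in each, and Casp4 was detected on no array. The p53 decamer was in 6 promoters (Birc2, Ccng1, Gadd45a, Mdm2, Pdcd7 and Sesn1), which is 9.38% against 8.36% of all. A match is a description of letters and does not show that a factor binds there. Of the 7 members called in any comparison, the 6 with a promoter in the table had no match of the NBRE or the forkhead core.

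The windows of the p53 targets Ccng1 and Mdm2 are shown because each holds a p53 decamer. That of Bbc3 is shown for its forkhead core, and that of Fas, the member with the largest difference between Foxa2 and Control, because it holds none of the motifs. Sequences run 5′ to 3′ on the gene's strand and capitals mark the motifs found. The Ccng1 window lies at chr11:40755237-40755536 on the minus strand, with the decamer starting at position -185 from the gene's start. The Mdm2 window lies at chr10:117710709-117711008 on the minus strand, with the decamer at -186 and a forkhead core, read on the other strand, at -153. The Bbc3 window, 1 of 3 for that gene, lies at chr7:16310011-16310310 on the plus strand, with the forkhead core at -167. The Fas window lies at chr19:34290409-34290708 on the plus strand.
Ccng1: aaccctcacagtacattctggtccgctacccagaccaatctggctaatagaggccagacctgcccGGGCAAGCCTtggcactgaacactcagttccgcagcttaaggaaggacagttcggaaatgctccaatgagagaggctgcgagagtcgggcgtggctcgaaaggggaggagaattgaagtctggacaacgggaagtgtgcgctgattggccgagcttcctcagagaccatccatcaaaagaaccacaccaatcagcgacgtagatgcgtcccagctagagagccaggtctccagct
Mdm2: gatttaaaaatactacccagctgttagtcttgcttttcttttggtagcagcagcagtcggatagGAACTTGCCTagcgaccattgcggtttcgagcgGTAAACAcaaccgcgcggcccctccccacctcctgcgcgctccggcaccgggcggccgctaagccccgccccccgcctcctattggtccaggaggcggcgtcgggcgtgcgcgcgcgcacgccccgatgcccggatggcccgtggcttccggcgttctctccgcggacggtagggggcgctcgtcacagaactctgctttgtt
Bbc3: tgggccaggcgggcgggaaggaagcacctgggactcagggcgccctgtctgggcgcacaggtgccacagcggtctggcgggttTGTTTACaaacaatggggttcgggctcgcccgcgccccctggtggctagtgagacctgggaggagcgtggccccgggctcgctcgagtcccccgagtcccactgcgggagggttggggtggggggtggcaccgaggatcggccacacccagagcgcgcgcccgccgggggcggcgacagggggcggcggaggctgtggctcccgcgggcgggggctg
Fas: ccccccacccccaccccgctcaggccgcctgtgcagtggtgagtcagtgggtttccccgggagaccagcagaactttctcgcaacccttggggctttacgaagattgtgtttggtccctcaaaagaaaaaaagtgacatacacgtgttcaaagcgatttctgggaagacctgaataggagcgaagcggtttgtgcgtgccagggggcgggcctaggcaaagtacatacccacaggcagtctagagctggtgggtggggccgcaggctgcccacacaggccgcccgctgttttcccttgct

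Genes of the same pathways outside the symbol rule were read from 3 lists. Of 38 further p53 target genes, 28 had a named probe and all 28 could be measured with both factors against Control, where 5 were called higher (all named genes: 7.06%), 0 lower (4.75%), and the median log2 difference was 0.35, against -0.08 for all named genes. With Nurr1 against Control 5 of 27 were higher and 0 lower (all named genes: 4.37% and 2.79%), and with Foxa2 3 of 27 were higher and 0 lower (3.52% and 1.48%). The 3 Foxa2 calls, of Cdkn1a, Ephx1 and Plk3, were each lost without background subtraction and in the authors' deposited values, at log2 differences between 0.94 and 0.97. Against Nurr1, the array with both factors had 3 of 28 higher and 2 lower (all named genes: 4.41% and 1.73%), and against Foxa2 1 higher and 1 lower (4.81% and 3.85%). The p53-induced and stress genes among the members had a median of -0.24 with both factors against Control, and the difference between these medians was not tested.

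Cdkn1a, the gene of p21, which arrests the cell cycle downstream of p53, had the largest difference of the list. It had signals of 4954 with both factors, 1327 with Nurr1, 1573 with Foxa2 and 701 in Control. Both factors stood well above either single factor, and each single factor above Control. Cdkn1a was 6.76-fold higher with both factors, 1.85-fold higher with Nurr1 and 2.03-fold higher with Foxa2 than in Control, and its other probes gave log2 differences of 2.17 and 2.73 with both factors. The Foxa2 call rests on a value just past the threshold, since the other probes gave 0.61 and 0.97. Ephx1, an epoxide hydrolase of detoxification, had signals of 4786 with both factors, 3202 with Nurr1, 2612 with Foxa2 and 1166 in Control, and was 3.82-fold higher with both factors, 2.70-fold with Nurr1 and 2.02-fold with Foxa2 than in Control. Pml, which forms nuclear bodies that modify p53, had 551 with both factors, 275 with Nurr1, 387 with Foxa2 and 215 in Control, and was 2.79-fold higher with both factors.

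Gtse1, a G2 and S phase protein that restrains p53, and Pidd1, a death domain scaffold that activates Casp2, were called with both factors and with Nurr1. Gtse1 was 2.37-fold higher with both factors and 3.17-fold higher with Nurr1 than in Control, and its dimmer probe, not detected in Control, gave bounds of 0.25 and 0.81 on the log2 scale. Pidd1 was 2.05-fold higher with both factors and 2.07-fold with Nurr1, calls that were lost without background subtraction. Cell cycle genes were higher on the same arrays, and their part in the difference of Gtse1, which is itself a cell cycle gene, was not tested. Plk2, a stress-induced polo-like kinase, had 942 with both factors, 1706 with Nurr1, 580.0 with Foxa2 and 468 in Control. It was 3.79-fold higher with Nurr1 than in Control and 2.05-fold lower with both factors than with Nurr1, a call lost without background subtraction (log2 difference -0.96). Plk3, its relative, was called with Foxa2 instead, with 418 with both factors, 470.3 with Nurr1, 1168 with Foxa2 and 515 in Control. The array with both factors was 3.33-fold below the Foxa2 array for Plk3. Fbxw7, a ubiquitin ligase subunit that degrades cyclin E and Notch, had 836 with both factors, 1659 with Nurr1, 1117 with Foxa2 and 658 in Control. Like Plk2, Fbxw7 was higher with Nurr1 than in Control (2.53-fold) and lower with both factors than with Nurr1 (2.29-fold). With Foxa2 alone Fbxw7 was 1.51-fold higher than in Control, where Plk2 was 1.03-fold higher. The other Fbxw7 probe gave log2 differences from Control of 0.13 with both factors, 1.78 with Nurr1 and 1.39 with Foxa2. Ptp4a3, a phosphatase, was 3.04-fold higher with both factors than with Nurr1. On the Nurr1 array its signal of 175 lay near the lowest detected one, 166. The Ptp4a3 call was lost with the mean over probes (log2 difference 0.85), and its other probe was detected on no array.

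**Figure D4:**
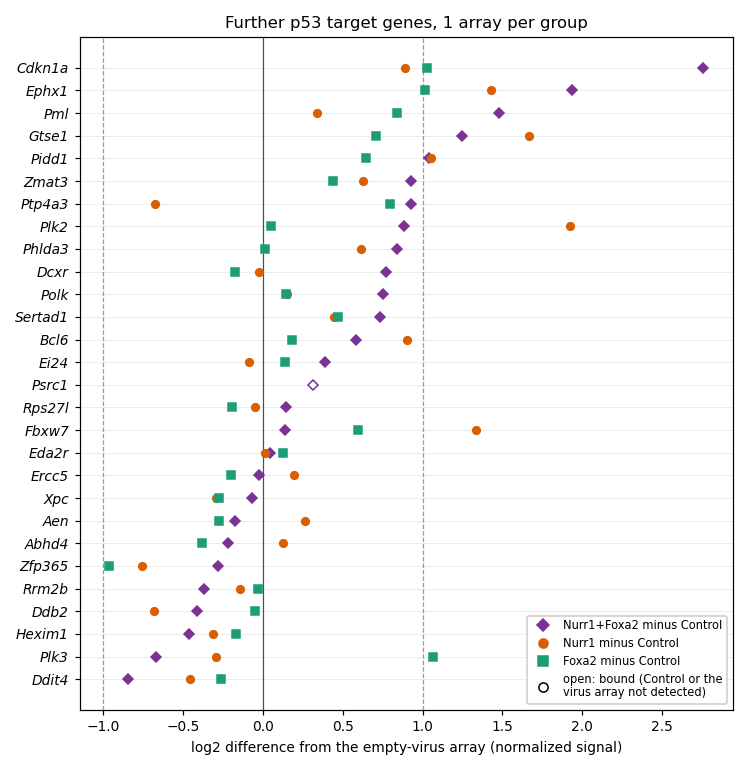
Log2 difference from the Control array for 28 further p53 target genes, with diamonds for Nurr1+Foxa2, circles for Nurr1 and squares for Foxa2, open where the difference is a bound. Cdkn1a lies furthest to the right with both factors at 2.76, Plk2 with Nurr1 at 1.92, and no gene reaches -1.

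Of 18 genes that activate or modify p53, such as Atm and Usp7, 11 had a named probe, and 0 of 10 measured were called in any of the 5 comparisons, where between 5.0% and 11.8% of all named genes were. Of 45 further apoptosis genes, 27 had a named probe. With both factors against Control 1 of 26 was called higher and 0 lower (all named genes: 7.06% and 4.75%), and with Nurr1 3 of 26 were called higher and 0 lower (4.37% and 2.79%). With Foxa2 against Control, and with both factors against Foxa2, 0 of 26 were called (all named genes: 5.0% and 8.66%). With both factors against Nurr1 1 of 26 was lower and 0 higher (1.73% and 4.41%). Bag3, a co-chaperone that protects stressed cells, had signals of 7343 with both factors, 5771 with Nurr1, 3762 with Foxa2 and 1786 in Control, and was 3.87-fold higher with both factors, 3.23-fold with Nurr1 and 1.94-fold with Foxa2 than in Control. Birc5, the gene of survivin, an IAP relative that acts in mitosis, was 2.61-fold higher with Nurr1 than in Control and 1.69-fold with both factors. Its 3 probes gave log2 differences between 1.39 and 1.55 with Nurr1, on an array where all 13 cell cycle genes were above Control. Foxo1, a transcription factor that induces death and stress genes, had 281 with both factors, 596 with Nurr1, 306 with Foxa2 and 237 in Control. It was 2.92-fold higher with Nurr1 than in Control and 3.04-fold lower with both factors than with Nurr1.

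The joint difference, the array with both factors minus the Nurr1 array minus the Foxa2 array plus Control on the log2 scale, is 0 where the single-factor differences add. It could be formed for the 51 members detected on all arrays. Its median was -0.14 over the members and -0.03 over 7127 named genes. It ranged from -0.85 (Trp53bp2) to 0.51 (Tnfrsf19), and 0 members reached 1 in size, against 5.95% of all genes. It was past 0.24, the SD between probes of a gene, in 22 members (43.1%), against 53.5% of all genes. In 31 of 51 members it was below 0 (60.8%, against 53.1% of all genes). Members whose differences from Control nearly added were Mdm2 and Bbc3, with joint differences of 0.00 and 0.01, and Gadd45g with 0.16. Ccng1 had 0.47 on its brightest probe and 0.28 and 0.38 on the others. Cdkn1a, outside the rule, had 0.84.

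**Figure D5:**
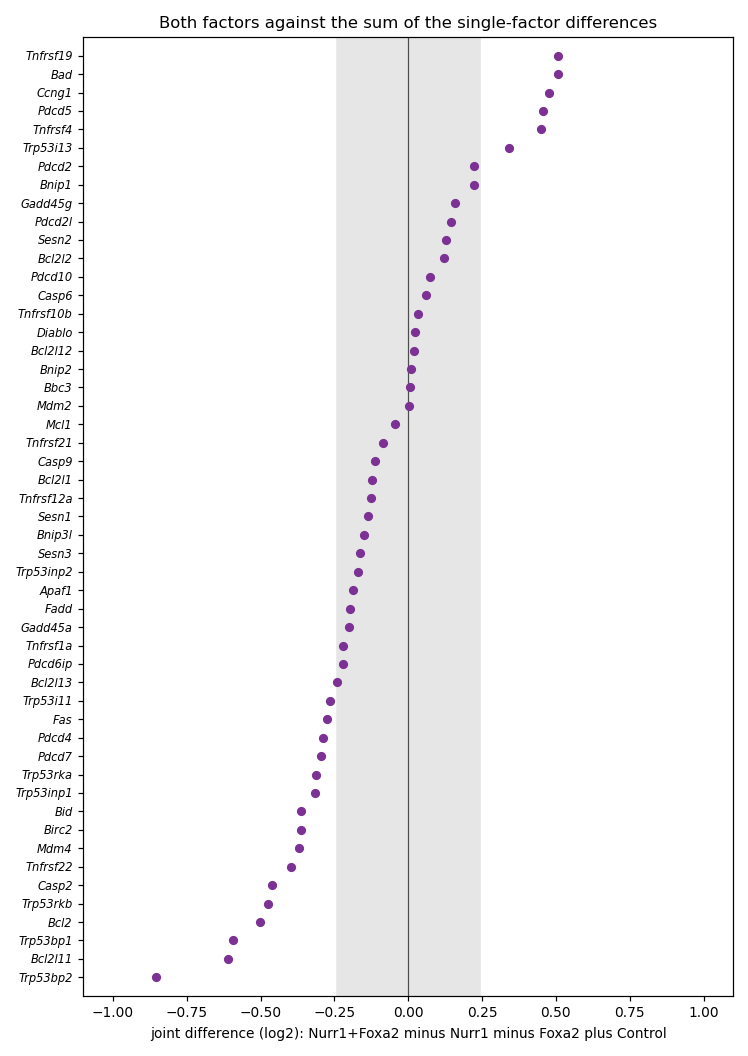
Joint difference on the log2 scale for the 51 members detected on all 4 arrays, ordered by size, with the grey band marking 1 SD between probes of a gene (0.24). All points lie between -0.85 for Trp53bp2 and 0.51 for Tnfrsf19, and 22 of them (43.1%, against 53.5% of all named genes) lie outside the band.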

How the data were processed

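RNA of 4 groups was measured on single-colour Illumina bead arrays, 1 per group. The deposited scanner file gives, per the file headers, a mean signal (intensity on a linear scale, without background subtraction, as its values show) and a detection p-value for each of 25697 probes. The authors' processed table has deposited log2 values for 13246 of them, which rank probes as the signals do and share a median of 9.04. The scanner software is not given in the sources used here. Symbols came from the platform annotation: 12484 probes had 1 symbol, 762 none and 0 several, and the other 12451 probes are unnamed here. Entrez identifiers of 12480 were found in RefSeq GRCm38.p6, and 0 symbols changed.

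Signals were background-corrected from the detection p-values and quantile-normalized over all arrays with neqc (offset 16) in limma 3.58.1 and R 4.3.3. Python 3.11.15, numpy 2.4.6, pandas 2.3.3 and matplotlib 3.10.9 served for tables and figures. A probe was detected at a detection p-value under 0.01. The probe of highest mean stood for a gene. An undetected dimmer value was raised to the lowest detected one, and a call needed a log2 difference of 1 with the brighter array detected. The number of arrays limits the precision. The calling steps were tested on simulated data.

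Named were the called members, the member of highest mean in each role list, and up to 6 called genes per comparison from the outside lists. Other members, the p53 decamer, the printed promoters and the marker sums without a list's brightest gene were chosen after their values were seen. Members and lists were chosen with earlier results of these data known. Alternatives were no background subtraction, an offset of 50, scaling to equal medians, the authors' deposited log2 values, detection at 0.05, no detection filter, the mean over probes, and a 1.5-fold threshold.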

Additional observations from a re-analysis of the deposited data

Results flagged for a closer look

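In the 5 members flagged here, the added effect of a factor on the brightest probe had opposite signs without and with the other factor. The 5 are not a full count of such members. For Tnfrsf19, for example, Foxa2 gave -0.38 without Nurr1 and 0.13 with it on the log2 scale. The share of all named genes with opposite signs is not given here. The opposite signs were not tested, with 1 array behind each value, and the paired effects share arrays with each other. The words effect and changed stand here for a difference between single arrays, which includes any difference between cultures. On the log2 scale, Nurr1 changed Bad by 0.30 with Foxa2 present and by -0.21 without it, a difference of 0.51. Nurr1 changed Trp53bp1 by -0.27 with Foxa2 and by 0.32 without it, and Foxa2 changed it by -0.25 with Nurr1 and by 0.35 without it. For Trp53bp1 both contrasts give the same difference of -0.59. Its other probe gave -0.25, with Nurr1 effects of -0.11 and 0.14 but Foxa2 effects of 0.01 with Nurr1 and 0.26 without it, so the opposite signs are absent for Foxa2 there. Nurr1 changed Trp53bp2 by -0.37 with Foxa2 and by 0.49 without it, and Foxa2 changed it by -0.46 with Nurr1 and by 0.39 without it, a difference of -0.85 in both. Foxa2 changed Bcl2 by -0.24 with Nurr1 and by 0.26 without it, a difference of -0.50, and its other probes gave -0.34, -0.61 and -0.00. The last of these had a Foxa2 effect of -0.41 with and without Nurr1, so it shows no opposite signs. Foxa2 changed Bcl2l11 by -0.23 with Nurr1 and by 0.38 without it, a difference of -0.61, and its other detected probe gave -0.23, with effects of -0.04 and 0.19. The SD of this difference between probes of a gene was 0.24.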

How the results depend on the processing

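No paired analysis was possible because each group has 1 array. Each of 10 counts of called members was recomputed under 8 alternatives, and 65 of these 80 values stayed within 1.5 times the reported count. At a 1.5-fold threshold, 8 members were higher and 6 lower with both factors against Control, 5 higher and 3 lower with Nurr1 against Control, and 4 higher and 1 lower with Foxa2 against Control. At the same threshold 3 were higher and 2 lower with both factors against Nurr1, and 5 higher and 7 lower with both factors against Foxa2. Without background subtraction, and with the authors' deposited values, 1 member (Gadd45g) was lower with both factors against Control, in place of 3. Under these settings and with the mean over probes, 0 members were higher with both factors against Nurr1, in place of 1. Fas there ranged from 0.91 to 1.16 on the log2 scale, Trp53rka with both factors against Control from -1.17 to -0.91 and Trp53rkb from -1.01 to -0.65. Pmaip1 with Nurr1 against Control ranged from 1.38 to 2.59 and Gadd45g with both factors from -1.41 to -1.25, and neither lost its call. Of 252 values of called genes, the outside lists included, 29 fell under 2-fold and 0 changed sign. Probes near background, such as those of Trp53rkb, Tnfrsf1a and Pmaip1, have folds that depend on the background estimate, and differences between cultures cannot be estimated from these arrays. The cause of the lost calls was not tested.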
